A study of Mus musculus with 16 samples.

Results

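Mouse bone marrow-derived macrophages that met the osteoclast cytokine RANKL in the presence of α-ketoglutarate were compared with the same kind of cells before RANKL. The comparison rests on 4 of the 16 arrays of the study, chosen by their titles: 1 array at 3 h and 1 at 6 h of RANKL with 1 mM dimethyl α-ketoglutarate (αKG, a cell-permeable ester of the tricarboxylic acid cycle intermediate), and the 2 arrays at 0 h. All arrays came from bone marrow of the tibias and femurs of male C57BL/6 mice aged 5 weeks, and all cells received macrophage colony-stimulating factor (M-CSF). The 0 h cells had M-CSF and DW (the name the labels give the control treatment), without RANKL. The αKG cells had αKG, M-CSF and RANKL. For comparison, 2 arrays with DW, M-CSF and RANKL at the same 3 and 6 h, and 2 arrays with αKG, M-CSF and RANKL at 0.5 and 1 h, were used. The labels put the 3 h and 6 h arrays together as the early phase, so each group holds 2 arrays and the early groups differ in time within themselves. Because no αKG array lacks RANKL and no 0 h array has αKG, the effects of RANKL, αKG and hours in culture cannot be told apart in the comparison with 0 h. Nothing in the labels says whether arrays came from separate cultures, so p-values measure a spread between arrays, part of which may be technical. In the comparisons with 0 h and with the first hour, this spread was pooled over all 8 groups of the study. Every group except 0 h pairs 2 different times, so the spread also holds change with time, including that of later phases.

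RANKL binds its receptor RANK on macrophages, where TRAF adaptors pass the signal to NF-κB, MAP kinases and AP-1. The canonical arm releases RelA from its inhibitors within minutes, and the alternative arm processes the p100 product of Nfkb2 to act with RelB. These factors later raise NFATc1, the transcription factor that switches on the genes of bone resorption. αKG is also the co-substrate of dioxygenases that demethylate DNA and histones, and NRF2 is the transcription factor that raises glutathione and antioxidant genes under oxidative or electrophilic stress.

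The promoter letters of a few of the genes that rose are shown first, because both signalling arms named above have well-known binding motifs. The sequences are from RefSeq (build GRCm38.p6), written 5′ to 3′ on the strand of the gene, with the motif match in capitals. For the κB motif (GGGA, any pair of bases, then TTCC, on either strand) the matches in Nfkb2 and Cxcl10 are given. Nfkb2 at chr19:46305445-46305493 and at chr19:46305680-46305739 lies on the plus strand, and Cxcl10 at chr5:92349014-92349073 on the minus strand:
Nfkb2, upstream match: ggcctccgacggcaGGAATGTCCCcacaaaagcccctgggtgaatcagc
Nfkb2, downstream match: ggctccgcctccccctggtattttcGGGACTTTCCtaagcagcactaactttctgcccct
Cxcl10: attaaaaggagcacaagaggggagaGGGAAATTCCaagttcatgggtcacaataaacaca

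For the core of the antioxidant response element (TGACNNNGC, either strand), which NRF2 binds with a small Maf partner, the matches in Srxn1, Procr and Suco are given, since all 3 genes were also higher with αKG than with DW. Srxn1 at chr2:152105527-152105573 and Procr at chr2:155751038-155751096 lie on the plus strand, and Suco at chr1:161876845-161876903 on the minus strand:
Srxn1: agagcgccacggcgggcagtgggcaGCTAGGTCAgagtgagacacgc
Procr: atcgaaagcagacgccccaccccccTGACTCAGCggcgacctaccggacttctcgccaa
Suco: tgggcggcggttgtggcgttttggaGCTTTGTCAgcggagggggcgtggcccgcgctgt

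The capitals in Procr also hold an AP-1 motif (TGANTCA), and the 2 motifs cannot be told apart there. A promoter window, 250 bases before to 50 bases after a gene start, was available for 53 of the 62 genes that rose, for 11 of the 16 that fell and for 12077 of the 15526 genes tested. A gene with several windows was counted once, if any of them held the motif. The κB letters occurred in 2 of the 53 genes (3.77%) against 1.76% of all tested genes with a window. The antioxidant core occurred in 11 of 53 (20.8%) against 16.3%, and AP-1 in 10 of 53 (18.9%) against 6.88%. An interferon response element type motif (a pair of GAAA repeats spaced by any pair of bases) occurred in 2 of 53 (3.77%) against 3.62%, and the cyclic AMP response element core TGACGTC in 2 of 53 (3.77%) against 5.42%. Among the 11 genes that fell, 1 held the antioxidant core (9.09%) and 0 held any of the other 4 motifs. Slc7a11 and Sqstm1 held neither the κB letters nor the antioxidant core in these windows. These shares describe letters in short windows and were not tested.

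After 3 to 6 h of RANKL with αKG, 62 genes rose and 16 fell against 0 h. The genes that rose most were Slc7a11, the cystine importer that feeds glutathione synthesis (38.9-fold, from a 0 h level too dim to be shown above background), Acod1, the enzyme that makes itaconate (26.4-fold), and Clec4e, the lectin receptor Mincle (13.9-fold). With them rose the NF-κB subunits Nfkb2, Relb and Rela, the adhesion molecule Icam1, the death inhibitor Birc3 and the death receptor Fas, and Mmp14, a membrane-anchored collagenase. Falls were smaller and included Tlr5, the flagellin receptor, and Rasgrp3, an activator of Ras and Rap. Of the genes of bone resorption and cell fusion, Acp5, Ctsk and Dcstamp did not pass the test.

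The 78 genes are 0.502% of the 15526 tested, with 0.399% higher and 0.103% lower, by limma with Benjamini-Hochberg adjusted p under 0.05 in a fit of all 8 groups of the study. The median over all genes tested was -0.01 on the log2 scale, and 1249 of the 15526 genes had an unadjusted p under 0.05. Counts of list members at an unadjusted p are to be read beside that share. The shares of all genes above 0, or at least 1 log2 higher or lower, were not counted, so such counts in lists have no background. Of the 62 genes that rose, 47 differed at least 2-fold and 18 at least 4-fold, with log2 differences from 0.66 to 5.28. Of the 16 that fell, 11 differed at least 2-fold and 0 at least 4-fold, with sizes from 0.73 to 1.66. When 1 of the 4 arrays was left out at a time, far fewer genes passed, not all of them among the 78, while 0 of the 78 changed sign. Nfkb2 passed in all 4 of these fits, and Slc7a11, Sqstm1 and Rhoh in 3 of 4. The kept signs follow largely from the choice of the 78 genes on these same arrays. A fit on the 4 arrays alone, which takes its spread from them only, called 794 genes (438 higher, 356 lower). Among them were 13 NRF2 target and glutathione genes, all higher, and 5 higher and 3 lower members of the cytokine list. Where a list is described below as having 0 calls, this holds for the fit of all 8 groups.

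**Figure D1:**
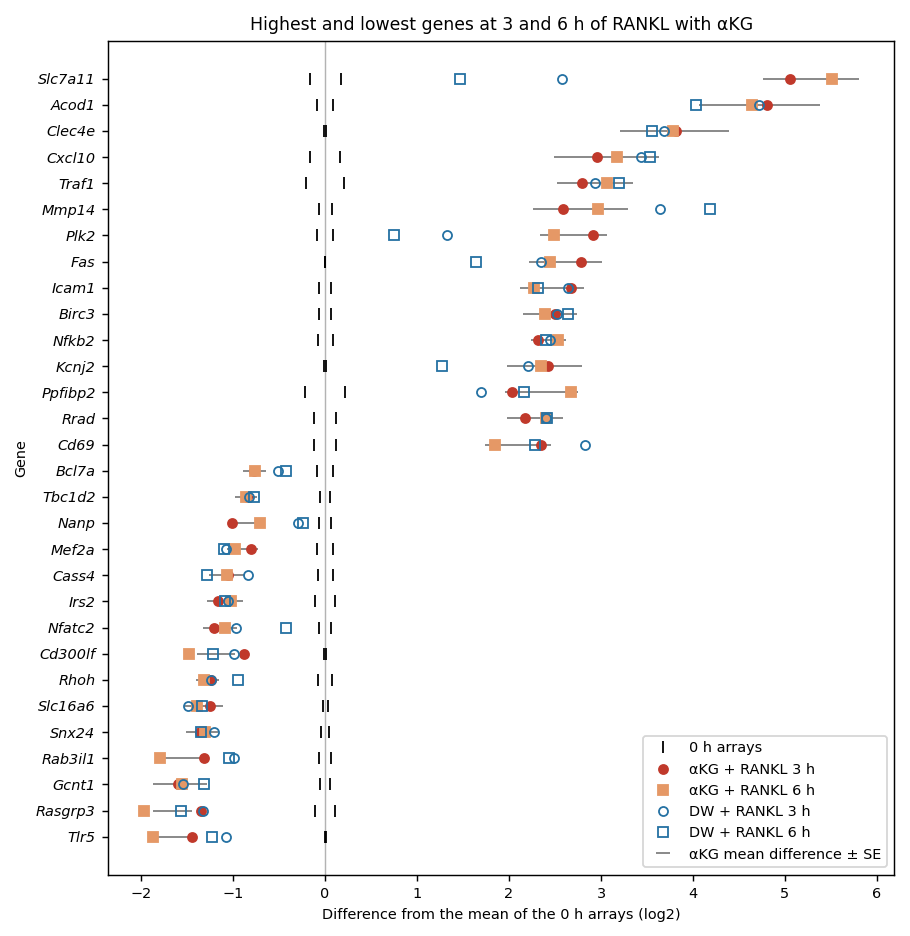
Difference of each array from the mean of the 0 h arrays (log2, horizontal axis) for the 15 highest and 15 lowest named genes; black ticks are the 0 h arrays, filled symbols the αKG arrays, open symbols the DW arrays, and grey bars the αKG mean difference ± its standard error. Both αKG arrays lie beyond both 0 h arrays for all 30 genes, which follows largely from their choice on these arrays. Among the genes that rose, Slc7a11 and Plk2 show the widest gap between filled and open symbols.

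Members of the NF-κB system were above their 0 h level. Of 17 tested subunits, inhibitors and kinases, 5 rose and 0 fell, and all 17 lay above 0, with a median of 1.20 log2 against -0.01 over all genes. With DW the median was 1.39, with 3 members higher and 0 lower; both comparisons use the same 0 h arrays. Nfkb2, the p100 precursor of the alternative arm, had levels of 6.76 and 6.92 at 0 h and 9.16 and 9.38 at 3 and 6 h with αKG, all on the log2 scale of the arrays. The groups were far apart relative to the gap within each, and the rise was 2.43 ± 0.19 log2 (adjusted p = 0.000754). Relb, its partner, went from 6.42 and 6.89 to 8.47 and 8.04, a rise of 1.59 ± 0.23 (adjusted p = 0.0151). Rela, the transactivating subunit of the canonical arm, rose less, from 9.86 and 9.72 to 10.55 and 10.43 (0.70 ± 0.12, adjusted p = 0.0294). Nfkbib, an inhibitor that holds NF-κB in the cytoplasm, rose by 0.87 ± 0.15 (adjusted p = 0.0305), and Ikbke, a kinase of the innate immune branch, by 1.35 ± 0.23 (adjusted p = 0.0304).

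Feedback genes of the same system had large differences that missed the test. Tnfaip3, the A20 ubiquitin editor that ends NF-κB signalling, differed by 1.52 ± 0.37 (adjusted p = 0.154) and Tnip1, its binding partner, by 1.45 ± 0.28 (adjusted p = 0.0617). Both αKG arrays of Tnfaip3, at 8.09 and 7.63, lay above both 0 h arrays, at 6.41 and 6.26. Upstream, of 21 tested receptors and adaptors, 2 rose and 0 fell, with a median of 0.13. Traf1, an adaptor of the TNF receptor family that is itself an NF-κB target, went from 5.60 and 6.01 to 8.60 and 8.87, a rise of 2.93 ± 0.41 (adjusted p = 0.0111). Tank, a binding partner of TRAF proteins, rose by 1.13 ± 0.21 (adjusted p = 0.0485); it did not pass without the filter on dim genes or after quantile normalization. The receptor RANK itself, Tnfrsf11a, had 8.71 and 8.74 at 0 h and 8.36 and 8.39 with αKG (-0.35 ± 0.55, adjusted p = 0.989), and its main adaptor Traf6 7.29 and 7.17 and 7.79 and 7.29 (0.31 ± 0.27, adjusted p = 0.914). For both, the difference was of the order of its standard error, which is pooled over all 8 groups, later phases included. Both αKG arrays of Tnfrsf11a lay below both 0 h arrays.

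Inflammatory genes known as NF-κB targets held further rises. Of 34 tested, 8 rose and 0 fell, against 0.399% and 0.103% over all genes. The median was 0.91, against -0.01 over all genes. With DW it was 1.21, and 11 rose and 0 fell. Of the 34 members, 32 lay above 0 with αKG and 16 were at least 1 log2 higher, without a count over all genes to set beside them. The 8 were Acod1, Clec4e, Cxcl10, Traf1, Icam1, Birc3, Cd69 and Sod2. Clec4e, a receptor for microbial glycolipids and for products of dying cells, went from 8.33 and 8.30 to 12.14 and 12.10 (3.80 ± 0.60, adjusted p = 0.022). Cxcl10, a chemokine for T cells that answers to both NF-κB and interferon, went from 8.16 and 8.48 to 11.28 and 11.49 (3.06 ± 0.57, adjusted p = 0.0464). Its DW arrays, at 11.76 and 11.86, were slightly above the αKG arrays, a difference of -0.42 ± 0.21 that did not pass the test (adjusted p = 0.643). Icam1, an adhesion molecule for leukocyte integrins, rose from 7.86 and 7.73 to 10.47 and 10.06 (2.47 ± 0.35, adjusted p = 0.0111), and its DW arrays, at 10.43 and 10.11, covered the same range. Cd69, an early activation antigen, rose by 2.10 ± 0.36 (adjusted p = 0.0304) and Sod2, the mitochondrial superoxide dismutase, by 1.55 ± 0.18 (adjusted p = 0.00496).

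Pattern recognition receptors and cell death genes included members in both directions. Among 25 Toll-like and C-type lectin receptors, 2 rose (Clec4e and Tlr2) and 1 fell (Tlr5), with a median of 0.09. Tlr2, the receptor for bacterial lipoproteins, went from 6.95 and 7.01 to 9.05 and 8.56 (1.83 ± 0.30, adjusted p = 0.0274). Among 20 survival and death genes, 3 rose and 0 fell. Birc3, a ubiquitin ligase that protects against TNF-induced death, went from 6.32 and 6.45 to 8.88 and 8.78 (2.45 ± 0.30, adjusted p = 0.00725). Fas, the death receptor, went from 6.05 and 6.04 to 8.83 and 8.49 (2.61 ± 0.40, adjusted p = 0.0189), and Casp4, the inflammatory caspase that senses cytosolic endotoxin, from 7.01 and 7.04 to 8.99 and 9.07 (2.01 ± 0.23, adjusted p = 0.00567). The list thus held an inhibitor of death beside 2 mediators of it. In the costimulation and MHC class II list, Tnfsf4, the OX40 ligand, alone of 20 tested members passed, with a rise of 1.34 ± 0.21 (adjusted p = 0.022). Its 0 h mean of 3.96 lay under the value of 4.34 below which dim genes were removed, so it is not shown to be above background. Against 4.34 the αKG mean was 0.96 log2 higher.

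Chemokines and cytokines were split by member. Of 22 chemokines, 1 passed (Cxcl10), and 4 were at least 1 log2 higher and 2 at least 1 log2 lower. Cxcl2, a neutrophil attractant, stood at 5.65 and 5.59 at 0 h and at 10.12 and 7.44 with αKG, so its difference of 3.16 ± 0.93 came with a wide gap between the times and did not pass (adjusted p = 0.269). Of 38 cytokines, growth factors and their receptors, 0 passed by limma, and 5 had an unadjusted p under 0.05. Of 14 chemokine receptors, 0 passed, with 5 at an unadjusted p under 0.05. Ccr1 had 7.41 and 7.30 at 0 h and 5.90 and 5.33 with αKG (-1.74 ± 0.61, adjusted p = 0.398), and Ccr2, the receptor for monocyte attractants, 7.63 and 7.77 and 6.62 and 6.58 (-1.09 ± 0.52, adjusted p = 0.661). The αKG and 0 h arrays of these 2 genes did not overlap, but both were named for a low p, and the share of such genes overall was not counted. Of 19 prostaglandin genes, 2 rose: Ptgir, the prostacyclin receptor, from 7.03 and 6.76 to 8.15 and 8.33 (1.35 ± 0.22, adjusted p = 0.023), and Ptges, a prostaglandin E synthase, by 0.88 ± 0.15 (adjusted p = 0.0274). Ptgs2, the inducible cyclooxygenase, had 4.55 and 4.88 at 0 h and 7.50 and 6.30 with αKG (2.19 ± 0.56, adjusted p = 0.187).

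Antioxidant and glutathione genes held the gene with the largest rise. Of 29 tested NRF2 target and glutathione genes, 3 rose (Slc7a11, Srxn1 and Sqstm1) and 0 fell, 27 lay above 0 and 16 had an unadjusted p under 0.05. The median was 0.53 with αKG and 0.10 with DW, where 1 member rose. Slc7a11 had 4.35 and 4.01 at 0 h, 9.23 and 9.69 with αKG and 6.75 and 5.64 with DW. The αKG arrays lay above the DW arrays, which lay above the 0 h arrays, without overlap. The mean at 0 h, 4.18, lay under the value of 4.34 below which dim genes were removed, so the gene stayed in the test through its other arrays and its 0 h level is not shown to be above background. Against 4.34 the αKG mean was 5.12 log2 (34.9-fold) higher. Of the 78 genes, 3 had such a 0 h mean: Slc7a11, Tnfsf4 and Mirlet7e, a microRNA gene named after its values were seen. The rise of Slc7a11 against the measured 0 h level was 5.28 ± 0.52 log2 (adjusted p = 0.00205), and the adjusted p was 0.0596 without 0 h array 2. Srxn1, sulfiredoxin, which repairs over-oxidised peroxiredoxins, had 8.43 and 8.24 at 0 h, 9.45 and 10.26 with αKG and 8.48 and 8.67 with DW (1.52 ± 0.23 against 0 h, adjusted p = 0.018). Its DW arrays lay close to the 0 h arrays. Sqstm1, the autophagy receptor p62, which also binds the NRF2 inhibitor KEAP1, had 10.29 and 10.20 at 0 h and 11.84 and 12.04 with αKG (1.70 ± 0.16, adjusted p = 0.002).

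Other well-known NRF2 targets were in the same direction without passing against 0 h. Gclm, the modifier subunit of the enzyme that starts glutathione synthesis, had 9.67 and 9.64 at 0 h and 10.50 and 11.11 with αKG (1.15 ± 0.24, adjusted p = 0.0853), and its DW arrays were at 9.73 and 9.76. Nqo1, a quinone reductase, had 6.14 and 6.25 and 6.64 and 7.54 (0.89 ± 0.29, adjusted p = 0.332). Hmox1, which degrades heme, had 11.20 and 11.23 and 11.65 and 12.13 (0.67 ± 0.20, adjusted p = 0.269), with DW arrays at 11.03 and 10.83, below 0 h. In all of these genes the 6 h array was above the 3 h array. Nfe2l2, which encodes NRF2, had 9.62 and 9.63 at 0 h and 10.41 and 10.22 with αKG (0.69 ± 0.16, adjusted p = 0.146).

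Slc7a11 is also a target of ATF4, the factor of the amino acid and integrated stress response. Of 29 tested ATF4 and amino acid response genes, Slc7a11 was the 1 that rose, 0 fell, and the median was 0.35 (0.001 with DW). Nupr1, a stress-induced nuclear protein, differed by 1.09 ± 0.33 (adjusted p = 0.289), Ppp1r15a, the feedback phosphatase subunit of the pathway, by 1.09 ± 0.28 (adjusted p = 0.187), and Slc38a2, a neutral amino acid transporter, by 0.73 ± 0.24 (adjusted p = 0.33). Slc38a2 had DW arrays at 9.51 and 9.57, beside 9.61 and 9.58 at 0 h and 10.35 and 10.30 with αKG. Of 16 heat shock genes, 0 passed, and 1 had an unadjusted p under 0.05. Of 18 metallothioneins and zinc transporters, 1 rose: the zinc importer Slc39a4, from 4.77 and 4.59 to 6.22 and 6.80 (1.83 ± 0.34, adjusted p = 0.0436), which did not pass after quantile normalization. The metallothioneins Mt1 and Mt2 differed by -0.13 ± 0.11 and -0.40 ± 0.16.

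Near αKG in metabolism, the genes that passed concern itaconate and carrier proteins. Among 14 tested itaconate and dicarboxylate transport genes, 2 rose and 1 fell. Acod1, which draws cis-aconitate from the cycle to make itaconate, had 5.52 and 5.69 at 0 h and 10.41 and 10.25 with αKG, a rise of 4.72 ± 0.66 (adjusted p = 0.0111). Its DW arrays, at 10.33 and 9.64, were nearly as high. Slc13a3, a sodium-coupled importer of dicarboxylates, went from 6.12 and 5.96 to 7.88 and 8.23 (2.02 ± 0.22, adjusted p = 0.00487), with DW arrays at 8.01 and 8.44. Slc16a6, a member of the monocarboxylate transporter family, fell from 8.32 and 8.26 to 7.04 and 6.90 (-1.32 ± 0.21, adjusted p = 0.023).

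The enzymes that make or use αKG showed no call. Of 29 genes of the tricarboxylic acid cycle and of pyruvate and glutamate entry, 0 passed by limma, and 0 had an unadjusted p under 0.05, with differences from -0.30 to 0.52 and a median of -0.005. Of 24 dioxygenases that use αKG, 0 passed, and 3 had an unadjusted p under 0.05; Tet3, a DNA demethylase, differed by -0.53 ± 0.15 (adjusted p = 0.255), Kdm2a, a histone demethylase, by 0.43 ± 0.14 (adjusted p = 0.353) and Plod1, a collagen lysyl hydroxylase, by -0.29 ± 0.11 (adjusted p = 0.433). Of 27 oxidative phosphorylation genes and 23 glycolysis and hypoxia genes, 0 passed, and in each list 1 had an unadjusted p under 0.05. Hk2, which starts glycolysis, had 7.69 and 7.52 at 0 h and 6.29 and 7.35 with αKG (-0.79 ± 0.43, adjusted p = 0.741), and Slc2a1, a glucose transporter, 8.69 and 8.72 and 9.53 and 9.79 (0.96 ± 0.53, adjusted p = 0.745).

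**Figure D2:**
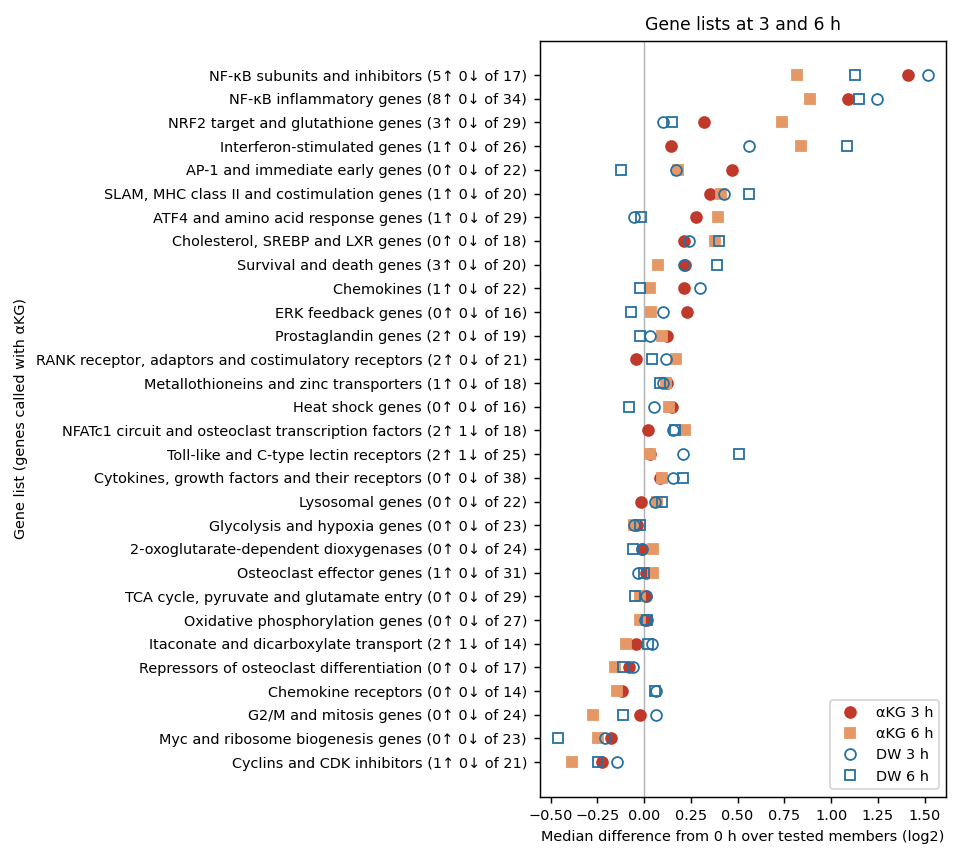
Median log2 difference from 0 h over the tested members of each gene list (horizontal axis), 1 symbol per array, with the genes that passed the test with αKG in brackets as higher, lower and tested. Over 3 and 6 h together, the 2 NF-κB lists have the highest medians in both treatments, although on the αKG array of 6 h the interferon-stimulated list (0.84) lies beside NF-κB subunits and inhibitors (0.82). In the NRF2 list the αKG arrays (0.32 and 0.74) lie to the right of the DW arrays (0.10 and 0.15).

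Apart from Mmp14, the genes that define the mature osteoclast did not pass the test at 3 to 6 h. Of 31 tested effector genes, 1 rose and 0 fell, with a median of 0.01. Mmp14 had 5.45 and 5.31 at 0 h, 7.97 and 8.35 with αKG and 9.02 and 9.56 with DW. It rose by 2.78 ± 0.52 with αKG (adjusted p = 0.0457) and by 3.91 ± 0.52 with DW (adjusted p = 0.015), and with αKG it did not pass after quantile normalization. Acp5, the acid phosphatase TRAP, had 6.61 and 6.64 at 0 h and 6.52 and 6.56 with αKG (-0.09 ± 0.44, adjusted p = 0.997), and Ctsk, cathepsin K, 5.72 and 5.45 and 5.84 and 5.59 (0.13 ± 0.44, adjusted p = 0.997). The groups of both genes differed by less than the standard error. That error is pooled over all 8 groups, later phases included, and is larger than the gaps between arrays within these groups. Mmp9, a gelatinase, had 5.38 and 5.49 and 5.98 and 6.72 (0.91 ± 0.59, adjusted p = 0.828). Dcstamp, needed for cell fusion, differed by -0.13 ± 0.47 (adjusted p = 0.997), and Calcr, the calcitonin receptor, by -0.08 ± 0.90 (adjusted p = 0.999).

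Upstream of these genes, the NFATc1 circuit held calls in both directions. Of 18 tested transcription factors and regulators, 2 rose (Nfkb2 and Relb, described above) and 1 fell. Nfatc2, an NFAT present before RANKL that takes part in the first induction of Nfatc1, went from 7.96 and 7.83 to 6.69 and 6.81 (-1.15 ± 0.18, adjusted p = 0.024), with DW arrays at 6.92 and 7.47. Nfatc1 had 8.25 and 8.24 at 0 h, 7.41 and 7.81 with αKG and 7.83 and 8.26 with DW. Both αKG arrays lay below both 0 h arrays, but the difference of -0.63 ± 0.27 did not pass (adjusted p = 0.572), nor did the one from DW (-0.43 ± 0.09, adjusted p = 0.187). Of 22 AP-1 and immediate early genes, 0 passed by limma, and 7 had an unadjusted p under 0.05. The fit on the 4 arrays alone called 5 of them higher and 0 lower. It also called 4 ERK feedback genes higher and 1 lower, and 2 repressors of osteoclast formation in each direction. Fos, the AP-1 subunit that osteoclasts need, had 6.98 and 7.01 at 0 h and 8.42 and 8.82 with αKG (1.62 ± 0.91, adjusted p = 0.756), and Junb differed by 1.25 ± 0.33 (adjusted p = 0.202). Of 17 repressors of osteoclast formation, 0 passed, with 4 at an unadjusted p under 0.05. Id1, an inhibitor of helix-loop-helix factors, had 7.10 and 6.997 and 5.58 and 5.11 (-1.71 ± 0.43, adjusted p = 0.172), and Irf8, the macrophage factor that opposes NFATc1, 8.06 and 8.17 and 7.61 and 8.21 (-0.21 ± 0.58, adjusted p = 0.997), with the 3 h array below and the 6 h array above 0 h. Of 16 ERK feedback genes, 0 passed, with 3 at an unadjusted p under 0.05; Dusp6, a phosphatase that switches off ERK, had 10.94 and 10.98 at 0 h and 8.80 and 9.79 with αKG (-1.66 ± 0.87, adjusted p = 0.716).

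Of the genes that fell, Tlr5 and Rasgrp3 had the largest differences. Tlr5 went from 7.78 and 7.76 to 6.32 and 5.89 (-1.66 ± 0.22, adjusted p = 0.0111), and its DW arrays, at 6.69 and 6.54, lay between. Rasgrp3 went from 7.08 and 7.29 to 5.84 and 5.22 (-1.66 ± 0.21, adjusted p = 0.0111). Rhoh went from 6.25 and 6.41 to 5.09 and 5.01 (-1.28 ± 0.12, adjusted p = 0.002). In none of these 3 genes did the αKG and 0 h arrays overlap, which follows largely from their having passed the test on these arrays. Gcnt1, which branches O-glycans, fell by 1.58, and Rab3il1, an exchange factor for Rab proteins, fell by 1.56 log2. Snx24, a sorting nexin, fell by 1.34, Cd300lf, an inhibitory receptor for lipids, fell by 1.19, and Irs2, an insulin receptor substrate, fell by 1.09. The transcription factor Mef2a, the scaffold Cass4, the phosphatase Nanp of sialic acid synthesis, the Rab-regulating Tbc1d2 and the chromatin subunit Bcl7a had differences of -0.90, -1.06, -0.86, -0.86 and -0.77. Mef2a, Cass4 and Nanp did not pass without the filter on dim genes.

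Of the genes that rose outside the lists, Plk2, a polo-like kinase induced by stress, went from 7.02 and 7.19 to 10.02 and 9.59 (2.70 ± 0.37, adjusted p = 0.0111). Kcnj2, an inward rectifier potassium channel, went from 4.67 and 4.65 to 7.08 and 7.005 (2.39 ± 0.41, adjusted p = 0.0304). Ppfibp2, a liprin, rose by 2.35 ± 0.40 (adjusted p = 0.0304), and Rrad, a Ras-related GTPase, by 2.28 ± 0.30 (adjusted p = 0.0111). In the list of cyclins and cyclin-dependent kinase inhibitors, Cdkn2b, the cell cycle inhibitor p15, was the 1 of 21 tested genes that passed. It went from 6.23 and 6.33 to 7.56 and 7.12 (1.06 ± 0.17, adjusted p = 0.0212). Over these 21 genes the median was -0.35 (-0.16 with DW), 4 lay above 0, and 4 had an unadjusted p under 0.05. The fit on the 4 arrays alone called 1 of them higher and 4 lower. Of 24 genes of mitosis and 23 of Myc and ribosome biogenesis, 0 passed and 0 had an unadjusted p under 0.05, with medians of -0.16 and -0.18 (-0.02 and -0.34 with DW).

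Further genes that rose are named here after their values were seen. Marco, a scavenger receptor of macrophages, rose by 1.52 ± 0.27 (adjusted p = 0.0391). Slc11a2, the iron importer DMT1, rose by 1.04 ± 0.18 (adjusted p = 0.0304), and Adam17, the protease that sheds TNF, by 0.66 ± 0.12 (adjusted p = 0.0304). Nfat5, the NFAT family member of osmotic stress, rose by 1.004 ± 0.17 (adjusted p = 0.0259), and Mapk11, a p38 kinase, by 0.84 ± 0.16 (adjusted p = 0.0474). Procr, the protein C receptor, went from 6.01 and 6.28 to 7.72 and 8.44 (1.94 ± 0.26, adjusted p = 0.0111). Suco, a membrane protein known from bone formation, went from 7.72 and 7.61 to 9.09 and 8.85 (1.30 ± 0.15, adjusted p = 0.00496), and Sfn, the 14-3-3 sigma protein, from 6.89 and 6.79 to 7.91 and 7.93 (1.08 ± 0.14, adjusted p = 0.0111).

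The 3 h and 6 h arrays with αKG also differed from each other. With 1 array per time this has no replicate check. Over the genes tested, 28 were at least 1 log2 higher at 6 h than at 3 h and 41 at least 1 log2 lower, 0.444% together. The SD of the difference was 0.26, against 0.20 between the 2 arrays at 0 h, where 9 genes were that far apart, and 0.24 between 3 h and 6 h with DW, where 47 were. None of the 78 called genes was at least 1 log2 apart between 3 h and 6 h with αKG, and their largest gap was 0.81. This follows largely from their having passed the test, since a wide gap within a group enlarges its spread. The share over all genes was also small. Of the list members, 10 were at least 1 log2 lower and 9 at least 1 log2 higher at 6 h, and several of the following are named after their values were seen. Among those lower at 6 h were Cxcl2 (10.12 at 3 h, 7.44 at 6 h), the cytokine Tnf (11.46 and 10.04), Il1b (5.85 and 4.68), Ptgs2 (7.50 and 6.30) and the mRNA-decay factor Zfp36 (10.22 and 9.03). All 5 are known as rapidly induced and short-lived inflammatory transcripts.

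Of the 9 list members higher at 6 h, most were interferon-stimulated genes, and Hk2, Clec4n and Slamf8 were also among them. This make-up depends on the choice of lists, and genes outside the lists among the 28 higher at 6 h are not described. Ifit1, which binds foreign RNA, stood at 8.44 and 8.37 at 0 h, 8.91 at 3 h and 10.36 at 6 h. Rsad2, the antiviral enzyme viperin, stood at 8.29 and 8.49, 8.87 and 10.004, and Usp18, which removes ISG15 and damps interferon signalling, at 9.23 and 9.24, 8.91 and 10.34. At 3 h Ifit1 and Rsad2 were slightly above 0 h and Usp18 below it, and at 6 h all 3 were above both 0 h arrays. Over 26 tested interferon-stimulated genes, the median difference from 0 h was 0.14 at 3 h and 0.84 at 6 h with αKG, and 0.56 and 1.09 with DW. Of the 26, 1 passed against 0 h (Cxcl10), 25 lay above 0, and 0 passed between αKG and DW, where the median was -0.31.

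The plot of levels over time shows where the early arrays sit in the whole course with αKG. For the 62 genes that rose, the median difference from 0 h was 0.18 and 0.55 in the first hour (0.5 and 1 h), 1.44 and 1.43 in the early phase, 1.05 and 0.89 at 12 and 24 h, and 0.58 and 0.68 at 48 and 72 h. Since the genes were chosen at 3 and 6 h, the high values there are fixed by the choice. Of the 62, 23 had their highest αKG array at 3 h and 27 at 6 h. The highest array was that of 24 h for 5 genes, of 12 h for 4, of 72 h for 2 and of 1 h for Cd69 alone. For the 16 genes that fell the median was -0.26 and -0.28 in the first hour, -1.18 and -1.20 in the early phase, -0.98 and -0.69 at 12 and 24 h, and -0.72 and -1.05 at 48 and 72 h. Nfkb2 stood at 8.88 at 72 h, close to its early level, while Slc7a11, at 4.18, was back in the range of 0 h.

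**Figure D3:**
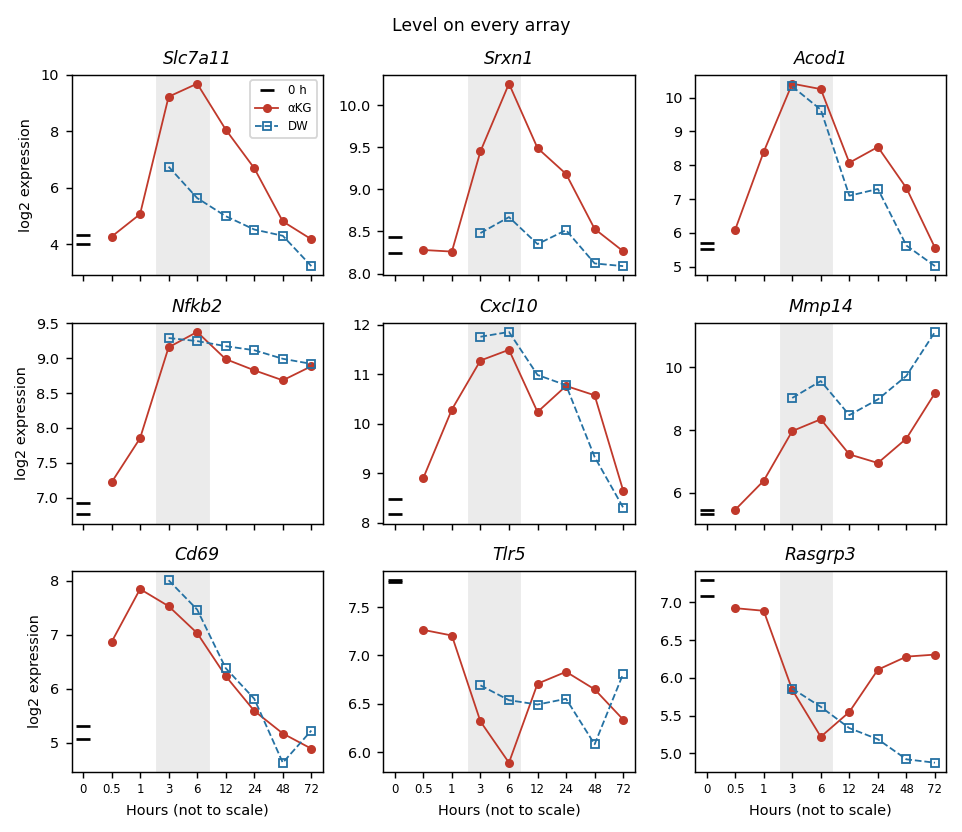
Log2 level of 9 genes on every array (vertical axis) against the hours of RANKL (horizontal axis, not to scale); black bars are the 0 h arrays, filled circles αKG, open squares DW, and grey shading marks 3 and 6 h. Slc7a11 with αKG reaches 9.69 at 6 h and Cd69 is highest at 1 h.

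The early arrays with αKG were also tested against those of the first hour. Between 3 to 6 h and 0.5 to 1 h with αKG, 18 genes passed, 14 higher and 4 lower, which is 0.116% of those tested (1063 had an unadjusted p under 0.05). After centring on array medians, 11 passed, 11 higher and 0 lower. Far fewer passed when 1 array of either group was left out. Of the genes that rose against 0 h, 13 of 62 were among those higher, and 3 of the 16 that fell were among those lower; both comparisons use the same αKG arrays at 3 and 6 h. Slc7a11 was at 4.27 and 5.07 in the first hour, and its later rise was 4.79 ± 0.52 (adjusted p = 0.00803). Slc13a3 was at 5.85 and 5.98 (2.14 ± 0.22, adjusted p = 0.00803), Srxn1 at 8.28 and 8.26 (1.58 ± 0.23, adjusted p = 0.0336) and Nfkb2 at 7.22 and 7.85 (1.73 ± 0.19, adjusted p = 0.00803). Cd69 was at 6.86 and 7.85 in the first hour and at 7.53 and 7.03 at 3 and 6 h (-0.07 ± 0.36, adjusted p = 1).

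The response with αKG was set beside the response with DW at the same times. Against 0 h, 53 genes passed with DW (0.341%), 47 higher and 6 lower; both responses share the 0 h arrays. For the 62 genes that rose with αKG, the median with DW was 1.29 at 3 h and 1.11 at 6 h, against 1.44 and 1.43 with αKG. For the 16 that fell, it was -1.02 and -1.09 with DW, against -1.18 and -1.20. Both sets were chosen on the αKG arrays, which favours larger differences with αKG, so these medians do not compare the strength of the 2 responses. Tested directly, with time as a block on the 12 arrays at shared times, αKG and DW differed in 25 genes at 3 to 6 h, 15 higher and 10 lower with αKG, or 0.161% (1324 had an unadjusted p under 0.05). After centring on array medians the split was 15 higher and 4 lower. The calls rest on the block and on both times. Without the block 0 genes passed by limma on the same 12 arrays (333 at an unadjusted p under 0.05), an alternative chosen after seeing the data, and 0 in the fit of all 8 groups (424 unadjusted). With the block, 2 passed when the pair of arrays of 3 h was removed and 0 when that of 6 h was removed. With the lowest 50% of genes left out 5 passed, and without the intensity trend 6.

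Of the 78 genes that changed against 0 h, 10 were also among these 25; both comparisons use the same αKG arrays, so the count is not independent. Of the 10, 9 were higher with αKG and 1, Mmp14, was lower. Slc7a11 was higher by 3.26 ± 0.33 (adjusted p = 0.012), by 2.48 at 3 h and 4.05 at 6 h. Plk2 was higher by 1.67 ± 0.23 (adjusted p = 0.0366), Procr by 1.36 ± 0.18 (adjusted p = 0.0366), Srxn1 by 1.28 ± 0.16 (adjusted p = 0.0362) and Suco by 1.15 ± 0.11 (adjusted p = 0.0101). Sfn was higher by 0.88 ± 0.12, Cdkn2b by 0.84 ± 0.12 and Sqstm1 by 0.66 ± 0.09. The gene A530064D06Rik, named after its values were seen, was higher by 1.14 ± 0.14. For Suco, Sfn and A530064D06Rik the differences of DW from 0 h were 0.15 ± 0.15, 0.20 ± 0.14 and -0.08 ± 0.17. Mmp14 was lower with αKG by 1.14 ± 0.16 (adjusted p = 0.0398), at both times.

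Among genes that did not pass against 0 h, Gclm was higher with αKG than with DW by 1.06 ± 0.12 (adjusted p = 0.0286), Cxcl2 by 1.68 ± 0.13 (adjusted p = 0.00666) and Ptgs2 by 1.53 ± 0.15 (adjusted p = 0.012). Cxcl2 had DW arrays at 8.61 and 5.60, so both treatments were lower at 6 h than at 3 h and αKG was above DW at each time. Cxcl16, a membrane chemokine, had a difference of -0.57 ± 0.08 (adjusted p = 0.0451) and Acp2, a lysosomal acid phosphatase, of -0.65 ± 0.09 (adjusted p = 0.0366). In the NRF2 list 4 of 29 genes were higher with αKG and 0 lower, and the median was 0.43 against -0.01 over all genes. In the list of cytokines, growth factors and their receptors 0 of 38 were higher and 2 lower, with a median of -0.06. In the list of NF-κB subunits 0 of 17 passed and the median was 0.01; for Nfkb2 the difference was -0.001 ± 0.11, for Relb -0.09 ± 0.10 and for Icam1 -0.01 ± 0.16.

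**Figure D4:**
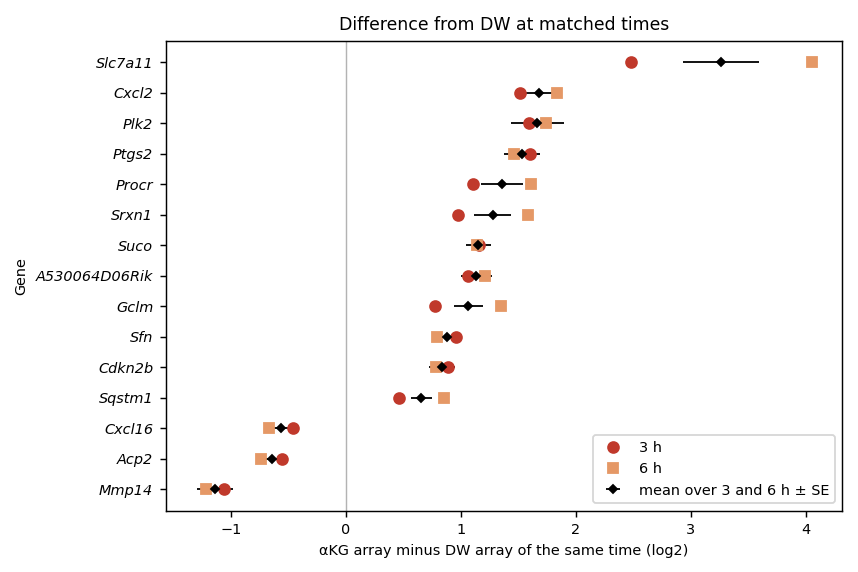
Log2 difference of the αKG array from the DW array of the same time (horizontal axis) for the 15 named genes that passed the test; red circles are 3 h, orange squares 6 h, and black diamonds the mean with its standard error. Both times lie on the same side of 0 for all 15 genes, which follows largely from their having passed the test. Slc7a11 differs most between the times (2.48 and 4.05). The test called 25 genes in all, 15 higher and 10 lower with αKG, and most of the lower ones are not shown.

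Markers were read as a check on the cells. All 8 macrophage markers were above the array median on all 4 arrays, at 7.34 to 12.79, and 0 of them passed the test. Over the 18 tested macrophage list genes the differences ran from -1.03 to 0.75, with a median of -0.03. Of these 18, 0 passed and 3 had an unadjusted p under 0.05. The 5 neutrophil and granule markers measured, among them S100a8 and Mpo, were also above the median, at 7.52 to 9.01, and 0 passed; over the 12 tested neutrophil list genes the differences ran from -0.34 to 0.13. None of the 4 B cell markers measured was above the median on all 4 arrays, 1 of 5 T and NK cell markers was, and so were 2 of 4 stromal markers, where the highest level was 6.42. Of the 4 osteoclast markers 2 were above the median, with levels up to 6.64. Of 2 to 7 tested genes each, 0 passed in the lists for B cells, T and NK cells, erythroid cells, stromal cells, and dendritic and mast cells. In RNA from whole cultures, fewer cells of a type and less RNA per cell cannot be told apart. The part of the granule signal in these results was not tested. Array medians over all 22180 genes ran from 5.15 to 5.24 in the deposited values, which were already normalized between arrays.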

How the data were processed

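Total RNA of 16 mouse macrophage samples was labelled with biotin through a whole-transcript kit and hybridised to 1-colour arrays, per the labels' protocols. The authors deposited log2 values of 33793 features. Their range (0.61 to 13.25) gave the log base, and array medians of 4.84 to 4.93 show values normalized between arrays; how they were summarised, normalized and background corrected is not given in the sources used here. A fold follows from a log2 difference. The 23521 features with 1 gene symbol gave 22180 genes, with the feature of highest mean over 16 arrays kept for the 1082 genes with several; 1814 features had several symbols, 8458 are unnamed here, and 23328 IDs were found in the gene table (GRCm38.p6).

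A filter removed the dimmest 30% of genes, those with a mean of at most 4.34 log2, leaving 15526. limma 3.58.1 in R 4.3.3 (lmFit, eBayes with an intensity trend) was fitted on all 8 groups (8 residual degrees of freedom) for contrasts with 0 h and with the first hour. αKG against DW was fitted on 12 arrays with time as a block and 1 αKG effect per phase (3 residual degrees of freedom). Times come from the labels, and arrays of the same time deviated together from their arm means (r = 0.50 to 0.75 across genes), each correlating best with its own time. For 6 h this was nearly a tie, with r = 0.502 for its own time and 0.484 for another time. p-values were adjusted by Benjamini-Hochberg over all genes tested, errors are standard errors on the log2 scale, and the script was tested on simulated data. The number of arrays limits the precision.

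The members and the 37 gene lists (685 of 791 genes tested) were chosen with earlier results of these data known, so lists are described by counts and medians only. Named genes were the 15 highest and 15 lowest past the threshold (predicted, clone-named and small RNA genes skipped), at most 6 members per list (those of lowest p), and the anchors Nfatc1, Irf8, Acp5, Ctsk, Mmp9, Mmp14, Dcstamp, Calcr, Slc7a11, Hmox1, Nqo1, Gclm, Tnfrsf11a, Traf6, Nfkb2, Relb and Fos; exceptions are marked as such. Alternatives were other filters, quantile normalization, centring, other eBayes settings, averaged features, smaller fits, no block, and leaving out arrays.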

Additional observations from a re-analysis of the deposited data

Results flagged for a closer look

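Between αKG and DW at matched times of 3 and 6 h, with time as a block in limma, 12 named or changed genes were higher with αKG: Slc7a11 by 3.26 log2, Cxcl2 by 1.68, Plk2 by 1.67, Ptgs2 by 1.53, Procr by 1.36, Srxn1 by 1.28, Suco by 1.15, A530064D06Rik by 1.14, Gclm by 1.06, Sfn by 0.88, Cdkn2b by 0.84 and Sqstm1 by 0.66. Of the 10 genes lower in the same test, 3 were named or changed. Their differences were -0.57 for Cxcl16, -0.65 for Acp2 and -1.14 for Mmp14. The other lower genes are not listed here, so the split of these 15 does not describe the whole test. None of these 15 passed without the block, on the same 12 arrays or in the fit of 8 groups, and of the 15 only Slc7a11 passed without the 3 h pair of arrays and 0 without the 6 h pair.

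With αKG, the arrays at 3 and 6 h differed from those at 0.5 and 1 h in 16 of the genes that changed against 0 h. The higher ones were Slc7a11 by 4.79 log2, Slc13a3 by 2.14, Procr by 2.02, Nfkb2 by 1.73, Srxn1 by 1.58, Casp4 by 1.47, A530064D06Rik by 1.39, Sqstm1 by 1.36, Dst (a cytolinker) by 1.25, Ampd3 (an AMP deaminase) by 1.10, Cdkn2b by 1.08, Suco by 1.06 and Sfn by 0.95. The lower ones had differences of -0.79 for Rhoh, -1.09 for Snx24 and -1.38 for Rasgrp3. Leaving out the 0.5 h array left 0 of the 16 past the threshold, and leaving out the 6 h array also left 0. Dst and Ampd3 are named after their values were seen.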

How the results depend on the processing

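Against 0 h, the 78 calls with αKG (62 higher, 16 lower) lay between 72 and 85 under the alternatives of filter, normalization, eBayes setting and averaged features, and 71 to 77 of the 78 genes kept their call in each, or 75 of the 75 tested where the lowest 50% was left out. Fits with fewer groups called more: 794 (438 higher, 356 lower) on the arrays of 0 h and αKG at 3 and 6 h alone, and 685 (387 higher, 298 lower) with DW at 3 and 6 h added. Leaving out 1 array gave 1 to 12 calls (1 to 8 higher, 0 to 5 lower); for DW against 0 h it gave 1 to 2 in place of 53. Among 1010 values of the 78 genes under alternatives, 0 changed sign, which follows largely from their choice on these same arrays. Of the named genes that did not pass, Irf8 and Calcr changed sign when 1 array was left out. The difference of Irf8 ranged from -0.509 to 0.094 and that of Calcr from -0.167 to 0.005. Both were above 0 without the αKG array of 3 h.

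For αKG against DW, 25 calls became 5 with the lowest 50% of genes left out, 6 without the intensity trend, 0 without the time block (the replicate block of the paired arrays) in the fit of 8 groups, which also takes in other arrays, 0 without it on the same 12 arrays in 6 groups (chosen after seeing the data), and 0 to 2 without 1 pair of arrays; without the block, the spread comes from arrays of unequal time. For 3 to 6 h against the first hour, 18 became 10 without the filter on dim genes, 11 after centring on array medians, and 0 to 8 without 1 array. An array left alone in a group was assumed to vary like the other groups. Signal over background was not available for single genes, so how far dim genes are measured was not tested.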
